A study of Mus musculus with 6 samples.

Results

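The genes of the Wnt pathway described here are 46 mouse genes chosen by name from the 21701 protein-coding genes analysed. They comprise 18 Wnt ligands, 10 Frizzled receptors, 2 intracellular antagonists (Nkd1 and Nkd2), 9 secreted antagonists (Dkk1, Dkk2, Dkk3, Sfrp1, Sfrp2, Sfrp4, Sfrp5, Frzb and Wif1), 3 targets or effectors (Axin2, Lef1 and Tcf7) and 4 R-spondins, which are secreted agonists. All 46 were found in the annotation. The data were 6 ChIP-seq libraries of distal forelimb (DFL) and proximal forelimb (PFL) from wild-type mouse embryos of strain B6CBAF1 at stage E12.5. For DFL and PFL alike there was a library of H3K27ac, which marks promoters and enhancers in use, of H3K27me3, which Polycomb deposits at repressed genes, and of CTCF, which binds many borders between chromatin domains. The labels name no treatment, and each piece is a mixture of mesenchyme, ectoderm and other cells. With 1 library per piece and mark no test was made, and every interval covers counting error only. Binding of HOXA13 and HOXD13 (together HOX13) was placed with 2 further lists from whole forelimb at an earlier stage, which are not samples of the series.

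Wnt ligands are secreted proteins that bind Frizzled receptors together with an LRP co-receptor. In the canonical branch this stabilises β-catenin, which acts with the DNA-binding proteins TCF and LEF at target genes such as Axin2, itself a feedback inhibitor. SFRPs, Frzb and Wif1 bind the ligands outside the cell, and Dkk1 and Dkk2 block the co-receptor. Naked proteins act on Dishevelled inside the cell, and R-spondins keep Frizzleds at the cell surface. In the limb bud, ectodermal Wnts act on the mesenchyme beneath, and Wnt5a in the distal mesenchyme acts through the non-canonical branch that orients cells and drives outgrowth.

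Within 50 kb of the 5′ ends of the 46 genes there were 134 distinct HOXA13 regions that overlapped a HOXD13 region. They lay near 36 of the 46 genes (78.3%), against 66.1% of all protein-coding genes. The HOXA13 summit with 50 bases to each side is shown for 8 of them, chosen after their values were seen because the sites belong to genes the results turn on or hold the searched letters. They are the site with the highest HOXA13 fold (near Rspo1), the highest of Wnt5a, Fzd10 and Nkd2, the Wnt16 site nearest its start, and 3 of Axin2. Sequences are from GRCm38.p6, which is the build mm10 of the lists. Capitals mark 2 kinds of letters on either strand. The first are words of HOX13, which are CAATAAA together with the variant TCATAAA, the variant CCATAAA and another variant, TCGTAAA. The second are words of TCF and LEF, CTTTGAT together with the variant CTTTGAA.
Fzd10 promoter (chr5:128600415-128600515, + strand): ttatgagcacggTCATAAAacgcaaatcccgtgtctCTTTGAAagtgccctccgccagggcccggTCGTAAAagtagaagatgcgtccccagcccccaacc
Nkd2 intron (chr13:73833954-73834054, + strand): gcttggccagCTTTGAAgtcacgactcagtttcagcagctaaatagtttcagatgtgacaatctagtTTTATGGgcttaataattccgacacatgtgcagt
Axin2 promoter (chr11:108920697-108920797, + strand): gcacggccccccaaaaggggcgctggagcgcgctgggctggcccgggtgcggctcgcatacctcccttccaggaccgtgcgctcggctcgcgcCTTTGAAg
Axin2 intron (chr11:108947570-108947670, + strand): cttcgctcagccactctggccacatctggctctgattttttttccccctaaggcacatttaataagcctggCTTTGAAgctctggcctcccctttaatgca
Axin2 downstream (chr11:108961725-108961825, + strand): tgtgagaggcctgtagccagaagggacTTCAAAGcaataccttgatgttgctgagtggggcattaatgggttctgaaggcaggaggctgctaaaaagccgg
Wnt5a upstream (chr14:28501437-28501537, + strand): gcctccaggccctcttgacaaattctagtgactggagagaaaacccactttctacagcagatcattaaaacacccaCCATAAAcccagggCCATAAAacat
Wnt16 intron (chr6:22290187-22290287, + strand): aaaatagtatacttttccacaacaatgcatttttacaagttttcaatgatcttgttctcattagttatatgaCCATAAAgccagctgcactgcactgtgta
Rspo1 upstream (chr4:124950763-124950863, + strand): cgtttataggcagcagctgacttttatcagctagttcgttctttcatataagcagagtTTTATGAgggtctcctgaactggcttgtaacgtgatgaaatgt

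The Rspo1 window lay 35617 bp upstream of this R-spondin gene and had the highest HOXA13 fold of the 134, 18.2, with a HOXD13 fold of 13.7, where a fold is the summit pileup over the local background of the list. The Wnt5a window, 3263 bp upstream of the start, had folds of 11.5 for HOXA13 and 9.88 for HOXD13 and held CCATAAA at 2 places. The Nkd2 window lay 13627 bp downstream of the start in an intron, with folds of 10.3 and 9.99, and the Fzd10 window 379 bp upstream of the start, with 8.29 and 7.04. The Axin2 windows lay 398 bp, 27271 bp and 41426 bp downstream of the start and had HOXA13 folds of 5.62, 9.59 and 8.65. An H3K27ac region of both DFL and PFL overlapped the HOXA13 region at Fzd10, Nkd2 and Axin2. The Wnt16 site overlapped H3K27ac in PFL alone, and the Rspo1 and Wnt5a sites in neither piece.

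At least 1 of the 4 HOX13 words stood in 36 of the 134 windows near the genes (26.9%, Wilson interval 20.1 to 34.9%), against 28.99% of all 41361 HOXA13 regions that overlapped HOXD13 and 6.12% of windows of the same length 1000 bp before those summits. For CAATAAA alone the shares were 7.46%, 11.8% and 2.39%. The other 3 words were added after the windows had been read. The genes' share of HOX13 words was thus close to that of all sites. CTTTGAT or CTTTGAA stood in 16 of the 134 windows (11.9%, 7.48 to 18.5%), against 6.24% of all such windows and 4.23% of the windows 1000 bp before. Of these 16, 10 overlapped H3K27ac in both pieces and 6 in neither. Axin2 had 4 such windows of its 10, Nkd2 had 2 of 5 and Lef1 had 2 of 4. A match of letters is a description, and neighbouring windows of a gene are not independent. The 41361 windows lie at any distance from a gene, so the shares are not matched for distance. The TCF and LEF letters had been chosen for the promoters, and their use at HOX13 sites was added later. In the 300 bases around the RefSeq starts, which were held for 33 of the genes, CTTTGAT or CTTTGAA stood in 3 (9.09%: Wnt5b, Wnt11 and Dkk1), against 9.92% of all genes in the table.

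H3K27me3 marked the promoters of most of these genes in both pieces of the limb, while H3K27ac was found at almost all receptors and at only part of the ligands. A promoter was taken as marked when a region lay within 2 kb of any transcript start. H3K27me3 was present in both DFL and PFL at 29 of the 46 promoters (63.0%), against 16.2% of all protein-coding genes. H3K27ac was present in both pieces at 31 (67.4%), against 58.0% of all genes. H3K27ac and H3K27me3 regions stood at the same promoter for 19 genes in DFL (8.84% of all genes) and for 27 genes in PFL (12.8% of all genes). In a piece made of several cell types such a promoter may carry the marks in different cells. The higher count in PFL depended on the length of the lists. With lists of equal size there were 19 such promoters in DFL (8.84% of all genes) and 20 in PFL (9.85%). With a −log10 q of at least 5 there were 13 in DFL (6.01%) and 18 in PFL (9.13%).

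**Figure D1:**
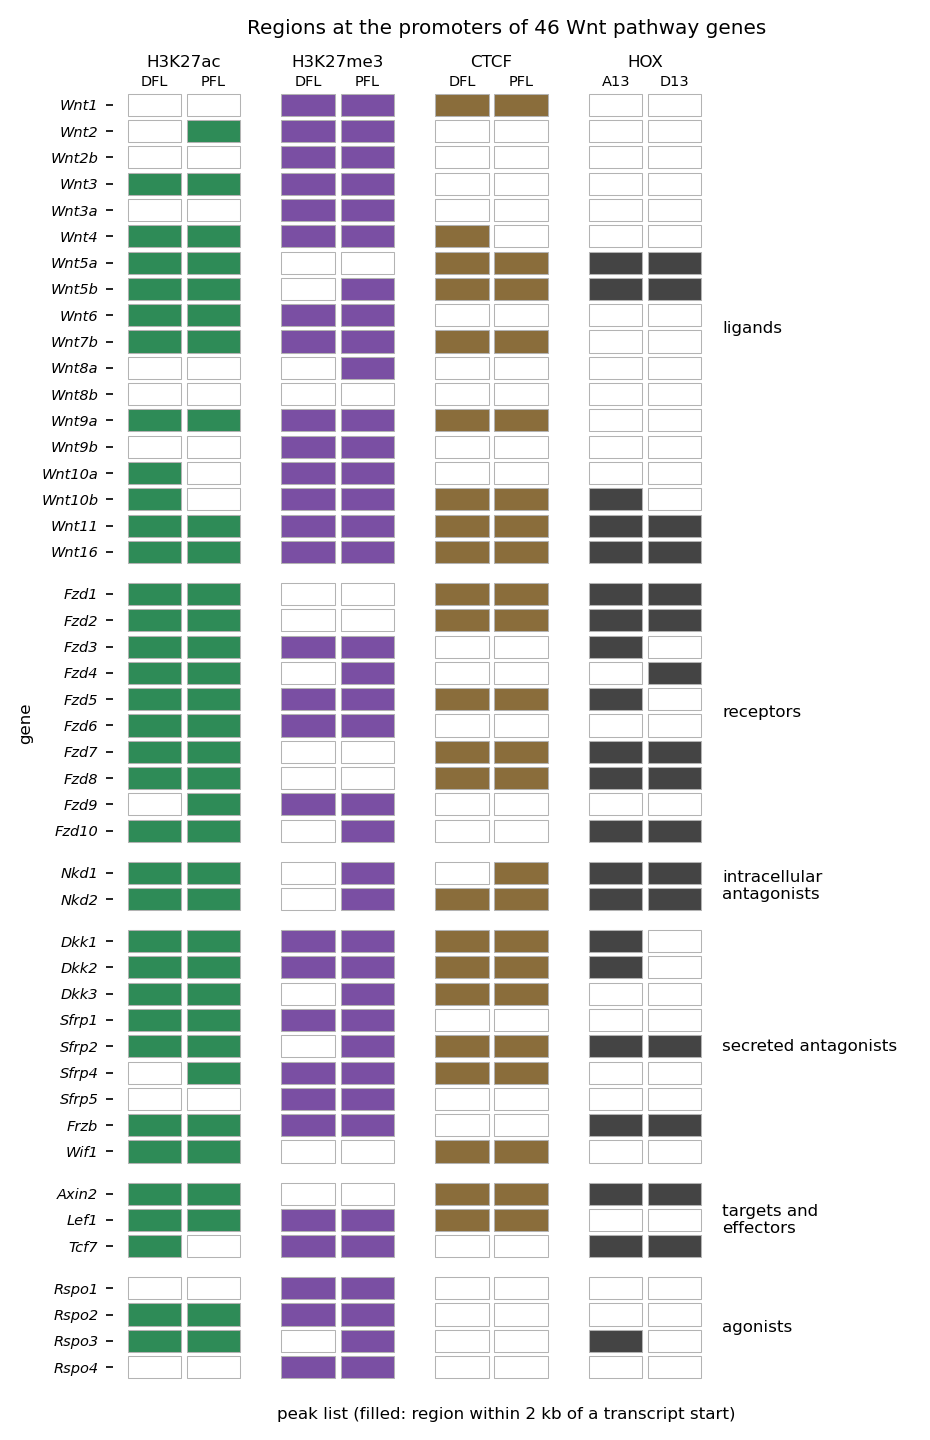
Presence of a region within 2 kb of a transcript start for the 46 genes (rows, grouped by role) in each peak list (columns, DFL left of PFL for each mark). Filled cells are regions present; H3K27me3 fills both columns at 29 genes and H3K27ac at 31.

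Among the 18 ligands, 9 had promoter H3K27ac in both pieces (Wnt3, Wnt4, Wnt5a, Wnt5b, Wnt6, Wnt7b, Wnt9a, Wnt11 and Wnt16), and 14 had H3K27me3 in both. Wnt1, Wnt2b, Wnt3a, Wnt8a, Wnt8b and Wnt9b had no promoter H3K27ac in either piece. All of those but Wnt8a and Wnt8b carried H3K27me3 in both pieces, Wnt8a carried it in PFL alone, and Wnt8b had neither mark within 2 kb. Wnt5a was the only ligand with H3K27ac in both pieces and H3K27me3 in neither, and it had no H3K27me3 region within 50 kb in DFL or in PFL. Its H3K27ac summit pileup of 357 fragments in DFL and 330 in PFL was the highest of the ligands in both pieces.

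The 10 Frizzled genes, which encode the receptors, had promoter H3K27ac in both pieces with the exception of Fzd9, where it was found in PFL alone. Fzd1, Fzd2, Fzd7 and Fzd8 had no promoter H3K27me3, Fzd3, Fzd5, Fzd6 and Fzd9 had it in both pieces, and Fzd4 and Fzd10 in PFL alone. Of the antagonists, Nkd1 and Nkd2 had H3K27ac in both pieces. So did Dkk1, Dkk2, Dkk3, Sfrp1, Sfrp2, Frzb and Wif1, whereas Sfrp4 had it in PFL alone and Sfrp5 in neither. Wif1 was the only secreted antagonist with no promoter H3K27me3. Axin2 had H3K27ac in both pieces and no promoter H3K27me3, Lef1 had both marks in both pieces, and Rspo2 and Rspo3 had H3K27ac in both pieces while Rspo1 and Rspo4 had it in neither. The other 3 R-spondins had H3K27me3 in both pieces, and Rspo3 in PFL alone.

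Promoter H3K27ac was limited to DFL at Wnt10a, Wnt10b and Tcf7, which is 3 of 46 genes against 1.16% of all genes. It was limited to PFL at Wnt2, Fzd9 and Sfrp4, also 3 of 46, against 3.59% of all genes. Tcf7 encodes TCF1, a DNA-binding partner of β-catenin. Its DFL region had a fold of 3.56 and a −log10 q of 11.5 and ranked 25895th of 59804, and the nearest PFL region to a start was 30183 bp away. The other regions were weak, with folds of 2.22 at Wnt10a, 2.30 at Wnt10b, 2.41 at Wnt2, 2.29 at Fzd9 and 2.41 at Sfrp4, and −log10 q from 2.76 to 5.12. With a −log10 q of at least 5 the DFL regions of Wnt10a and Wnt10b and the PFL regions of Wnt2 and Sfrp4 were lost, and those of Tcf7 and Fzd9 remained.

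Several cell types of the limb bud differed between the pieces in the same lists. Of 12 markers of surface ectoderm, 5 had promoter H3K27ac in DFL alone (Krt5, Epcam, Cdh1, Esrp1 and Sp6), 2 in PFL alone (Krt8 and Krt18), 3 in both and 2 in neither, and their covered length within 50 kb had a median of 2287 bp in DFL and 1955 bp in PFL. Of 8 muscle markers, 7 had it in PFL alone and 1 in neither, with medians of 971 bp in DFL and 2388.5 bp in PFL. Of 8 endothelial markers, 1 had it in DFL alone, 2 in PFL alone and 5 in both. Of 8 distal and 8 proximal limb markers, 7 each had it in both pieces. Wnt10a, Wnt6, Wnt7b and Wnt3 are known from the ectoderm of the limb bud. Within 50 kb, H3K27ac covered 3977 bp in DFL and 2235 bp in PFL around Wnt6 and Wnt10a. It covered 2919 bp in DFL and 4696 bp in PFL around Wnt7b, and 1180 bp and 1544 bp around Wnt3. The part of these cell types in any difference reported here was not tested, and a larger share of marked cells and more signal per cell cannot be told apart.

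H3K27me3 was found in PFL alone at 9 promoters and in DFL alone at none. The 9 were Wnt5b, Wnt8a, Fzd4, Fzd10, Nkd1, Nkd2, Dkk3, Sfrp2 and Rspo3, and all but Wnt8a also had H3K27ac in both pieces. The share of all genes was 4.01% for PFL alone and 0.475% for DFL alone. Since most of the 46 genes carry the mark, the closer comparison is with marked genes. PFL alone then held 9 of the 38 genes with H3K27me3 in either piece (23.7%), against 19.4% of such genes in the genome, so the share was near the background. The DFL H3K27me3 library was also the shallower, with a lowest local background of 3.06 fragments in DFL against 4.75 in PFL, a ratio of 0.646, and 7 of the 9 promoters had a −log10 q under 5. Their summit pileups in PFL were from 16 fragments (Dkk3) to 45 (Fzd10). Fzd10 had the highest −log10 q of the 9 (7.28), followed by Fzd4 (6.42).

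With H3K27me3 lists of equal size, Wnt8a, Fzd4 and Fzd10 were the 3 promoters still in PFL alone, and with a start distance of 1 kb there were 5 (Wnt5b, Wnt8a, Fzd4, Fzd10 and Nkd2). Fzd4 and Fzd10 were in PFL alone under each of the promoter settings run.

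Where a mark was present at the promoter in both pieces, its strength was compared through the summit pileup, solved from the deposited fold and p-value. The ratio of DFL to PFL was divided by its median over all genes, 0.948 for H3K27ac (12591 genes) and 0.603 for H3K27me3 (3510 genes). For H3K27ac at 31 of the 46 genes the relative ratio had a median of 1.06 and ran from 0.489 (Wnt16) to 2.11 (Nkd2). The counting interval lay above 1 at 8 genes, against 6.32% of all genes, and below 1 at 7, against 7.35% of all genes. Counting intervals leave out the spread between libraries, and the central 95% of all genes ran from 0.624 to 1.49.

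The genes with the higher relative H3K27ac in DFL included both intracellular antagonists. At the Nkd2 promoter the summit pileup was 176 fragments in DFL and 88 in PFL, a relative ratio of 2.11 (1.63 to 2.76). Of all genes, 0.556% reached a ratio of at least 2. At the Nkd1 promoter it was 167 fragments in DFL and 101 in PFL, a relative ratio of 1.75 (1.35 to 2.26). Naked proteins dampen canonical signalling through Dishevelled. Fzd10, a receptor, had 191 fragments in DFL and 119 in PFL (1.69, 1.34 to 2.15), and Wnt5b, a ligand of the non-canonical branch, had 102 in DFL and 64 in PFL (1.68, 1.22 to 2.34). These are the 4 highest of the 31, and all had promoter H3K27me3 in PFL alone. That state was held by 8 of the 31 and by 652 of the 12591 genes with H3K27ac in both pieces. The H3K27me3 regions were weak at Nkd2, Nkd1 and Wnt5b, with −log10 q of 2.79, 2.87 and 3.81. With lists of equal size Fzd10 alone of the 4 kept that state. Wnt7b had 62 fragments in DFL and 42 in PFL (1.56, 1.04 to 2.36), with summits 765 bp apart. Lef1, which encodes a partner of β-catenin, had 237 in DFL and 165 in PFL (1.52, 1.24 to 1.86). The DFL and PFL summits also lay 672 bp apart at Fzd4, 519 bp at Wnt5b, 502 bp at Lef1 and 268 bp at Nkd1. Wif1 and Fzd4 followed with relative ratios of 1.38 and 1.29. The summit fold, which divides by the local background, leaned otherwise at some of these genes. It was lower in DFL than in PFL at Fzd10 (3.31 against 3.43) and Lef1 (3.80 against 4.54). The same held at Wif1 (3.74 against 4.17) and Wnt7b (3.06 against 3.34). At Nkd2, Nkd1, Wnt5b and Fzd4 the fold was higher in DFL. The length covered by H3K27ac within 50 kb did not always lean the same way as the pileup. It was shorter in DFL than in PFL around Nkd1 (4815 bp against 5984 bp) and Wnt5b (3256 bp against 3730 bp). The same held around Wnt7b (2919 bp against 4696 bp) and Fzd4, while it was longer in DFL around Nkd2, Fzd10, Lef1 and Wif1.

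The genes with the lower relative H3K27ac in DFL came from several roles. Wnt16, a ligand, had 25 fragments in DFL and 54 in PFL, a relative ratio of 0.489 (0.291 to 0.799), and 0.802% of all genes were at or below 1/2. Rspo3 had 83 fragments in DFL and 166 in PFL (0.528, 0.4005 to 0.691). Frzb, a secreted antagonist known from cartilage, had 65 in DFL and 129 in PFL (0.532, 0.388 to 0.722). These 3 were below the central 95% of all genes. The others whose interval lay below 1 were Fzd5 (0.641), Fzd8 (0.642), Dkk2 (0.643) and Wnt11 (0.658). The summit fold was also lower in DFL than in PFL at Wnt16 (1.93 against 4.12) and Fzd5 (3.63 against 5.49). It was higher in DFL at Fzd8 (4.89 against 3.66), Dkk2 (4.65 against 3.64) and Wnt11 (3.22 against 2.75). The fold was likewise higher in DFL at Frzb (4.43 against 4.16) and Rspo3 (4.19 against 3.85). Axin2, which reads out canonical signalling in many tissues, was near 1, with 325 fragments in DFL and 305 in PFL (1.12, 0.959 to 1.32). Fzd1, Fzd2 and Fzd7 had relative ratios of 1.06, 0.985 and 1.04.

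**Figure D2:**
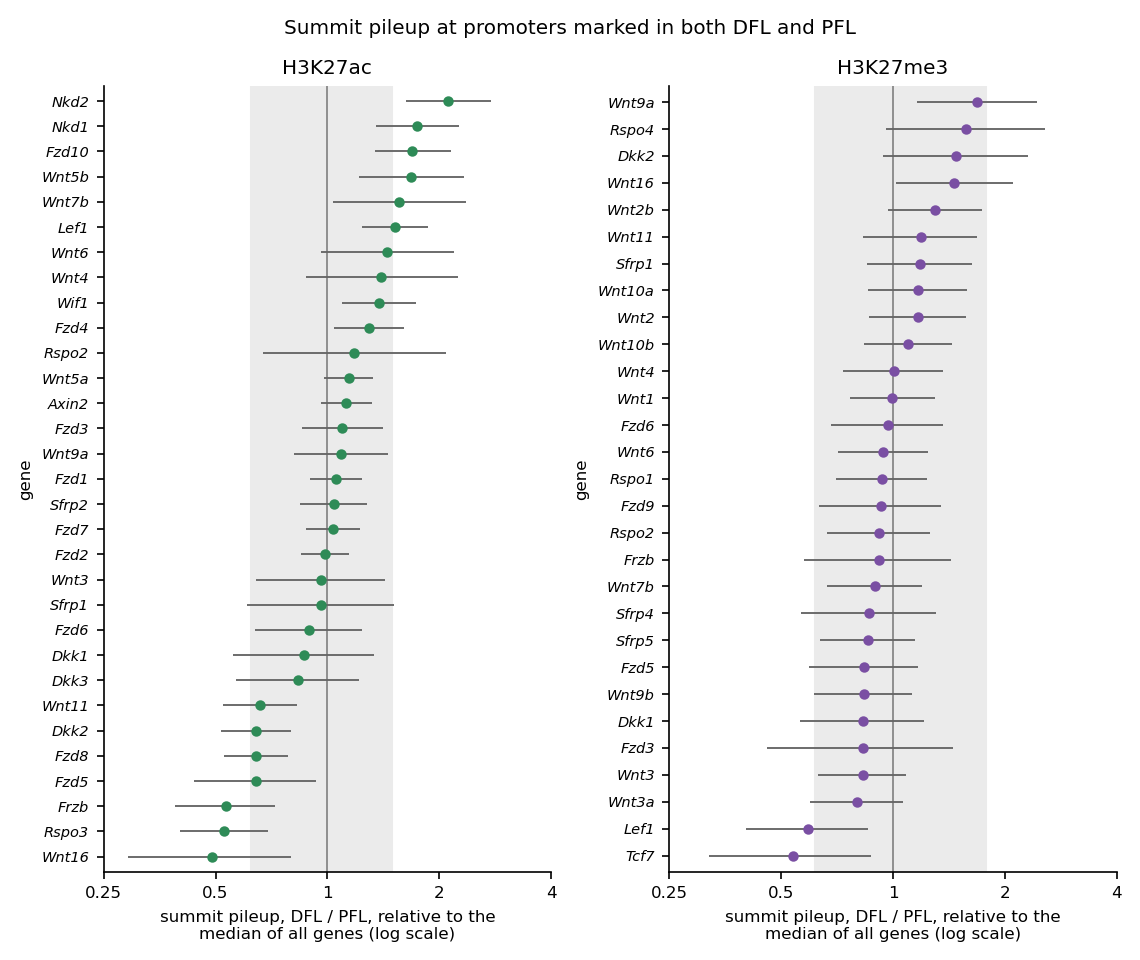
Ratio of summit pileup, DFL over PFL, relative to the median of all genes (horizontal, log scale), for the genes marked in both pieces, with 95% counting intervals as bars and the central 95% of all genes shaded. Nkd2 (2.11), Nkd1 (1.75), Fzd10 (1.69) and Wnt5b (1.68) are highest for H3K27ac, and Tcf7 (0.537) and Lef1 (0.592) are lowest for H3K27me3.

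Split by promoter H3K27me3, the 8 genes with H3K27ac in both pieces and H3K27me3 in PFL alone had a median relative H3K27ac ratio of 1.49, with 6 of the 8 above 1 and a range from 0.528 (Rspo3) to 2.11 (Nkd2). The 16 with H3K27me3 in both pieces had a median of 0.959, with 7 above 1, and the 7 with none had a median of 1.06. Over all genes the medians were 1.04 for the 652 with H3K27me3 in PFL alone, 0.982 for the 1726 with it in both pieces and 1.0 for the 10130 with none. This split was made after the ratios had been seen.

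For H3K27me3 itself, 29 of the genes had a relative ratio with a median of 0.934 and a range from 0.537 to 1.69. The interval lay above 1 at Wnt9a and Wnt16, against 5.30% of all genes, and below 1 at Tcf7 and Lef1, against 3.62% of all genes. Tcf7 had 23 fragments in DFL and 71 in PFL (0.537, 0.320 to 0.870), with summits 555 bp apart. Lef1 had 40 in DFL and 112 in PFL (0.592, 0.402 to 0.856). Both encode DNA-binding partners of β-catenin. For H3K27ac, Tcf7 had a promoter region in DFL alone and Lef1 a relative pileup ratio of 1.52. The folds did not all lean this way. The H3K27me3 fold was higher in DFL than in PFL at Lef1 (3.51 against 2.48) and Tcf7 (4.43 against 4.11). The H3K27ac fold of Lef1 was lower in DFL (3.80 against 4.54). Wnt9a had 61 in DFL and 60 in PFL (1.69, 1.16 to 2.45), and Wnt16 had 60 in DFL and 68 in PFL (1.46, 1.02 to 2.1). Both ratios lay inside the range from 0.617 to 1.78 that held the central 95% of all genes with H3K27me3 in both pieces. None of the 29 reached a ratio of at least 2 for H3K27me3 (1.37% of all genes) or was at or below 1/2 (0.570% of all genes).

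The wider surroundings were compared as the length covered by regions within 50 kb of the annotated 5′ end. A window was called for a piece when its covered length was at least 2 times that of the other piece and at least 1 kb longer. For H3K27ac, none of the 46 windows was called for DFL (0.641% of all genes) and 2 were called for PFL (4.17% of all genes). These were Wnt2, with 865 bp in DFL and 2084 bp in PFL, and Wnt16, with 1621 bp in DFL and 3936 bp in PFL. The median difference, DFL minus PFL, was -364 bp over the 46 genes and -243 bp over all genes, and the PFL list was the longer in all, with 43.98 Mb against 36.5 Mb in DFL. DFL held 47.6% of the H3K27ac length summed over the genes' windows and 46.4% over all genes. Windows also hold regions of neighbouring genes, and Wnt1 and Wnt10b, Wnt6 and Wnt10a, Wnt3 and Wnt9b, and Wnt3a and Wnt9a share much or all of theirs.

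**Figure D3:**
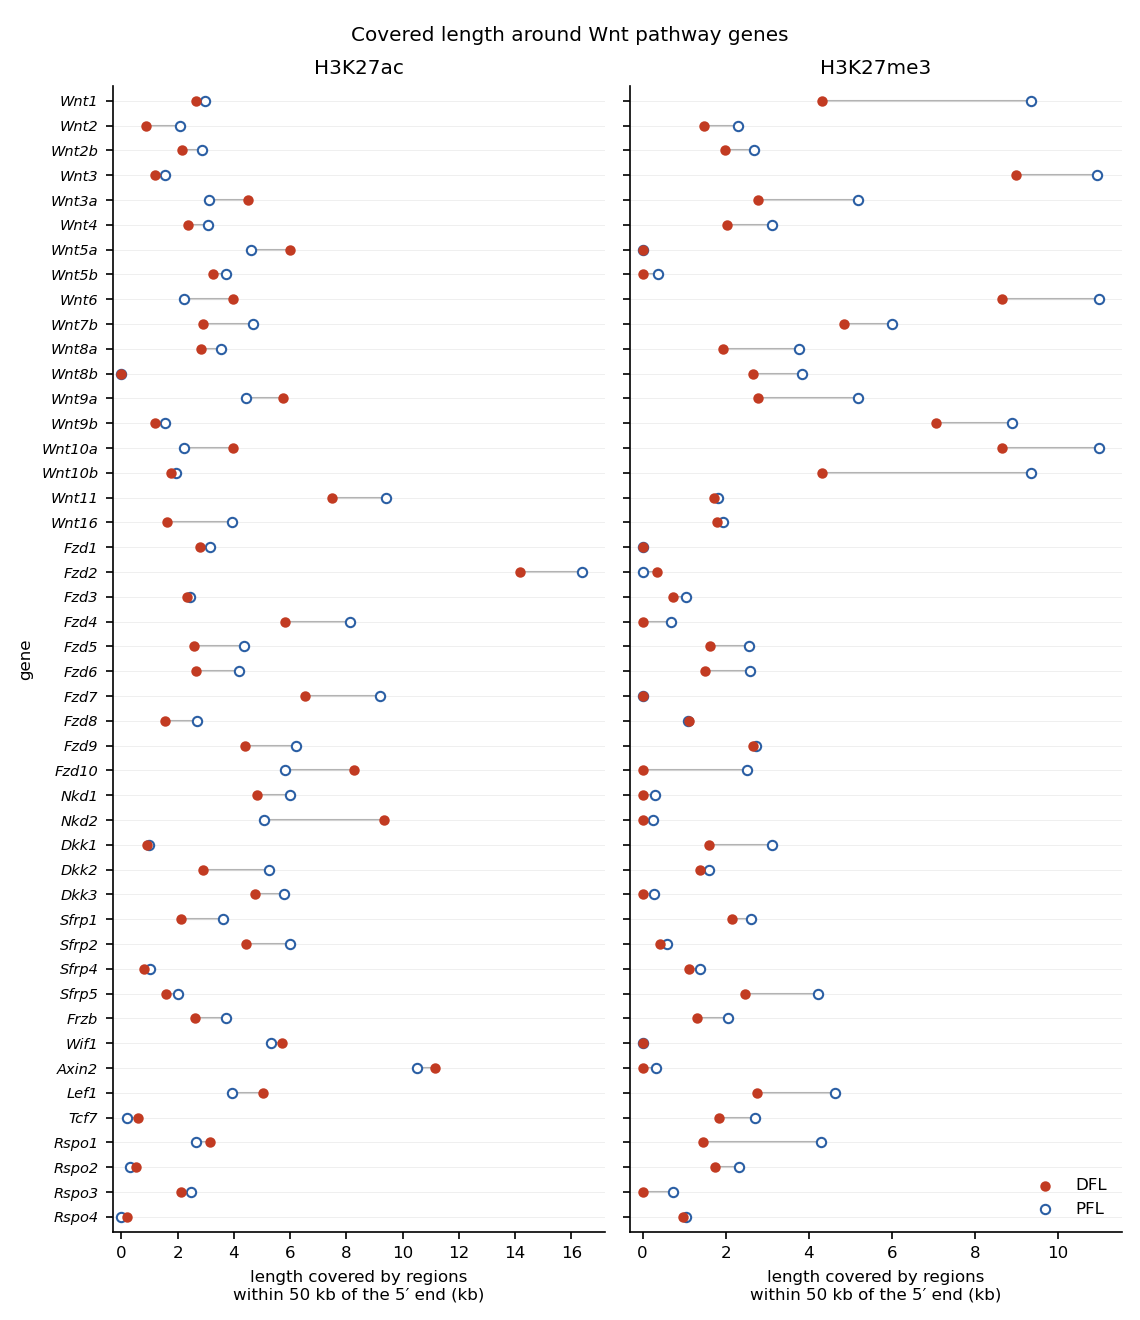
Covered length in kb around the 5′ end of each of the 46 genes, 50 kb to either side, for H3K27ac on the left and H3K27me3 on the right, with filled points for DFL and open points for PFL. H3K27ac around Nkd2 covered 9346 bp in DFL and 5075 bp in PFL, and H3K27me3 around Fzd10 covered 0 bp in DFL and 2508 bp in PFL.

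The longest excess of H3K27ac in DFL lay around Nkd2 (mm10 chr13:73818534-73847631, − strand), where 14 DFL regions covered 9346 bp and 9 PFL regions covered 5075 bp. Of the DFL regions, 6 had no PFL counterpart, while each PFL region had a DFL counterpart. The ratio did not reach 2, but it did within 20 kb, where Nkd2 was the 1 gene called for DFL, and with lists of equal size. HOXA13 or HOXD13 regions overlapped 3 of the 6 DFL-alone regions, at 13294 bp and 12001 bp downstream and 33195 bp upstream of the start. The HOXA13 region of the Nkd2 window shown above, at 13627 bp, also overlapped a shared H3K27ac region with summits at 13982 bp in DFL and 13972 bp in PFL, whose fold was 4.43 in DFL and 6.13 in PFL. At this shared region the fold, which divides by the local background, was thus not higher in DFL. The pileup of this region is not given here.

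Fzd10 (chr5:128600844-128604093, + strand) followed with 13 DFL regions covering 8286 bp and 10 PFL regions covering 5818 bp. No start of another protein-coding gene lay within 50 kb of Fzd10, nor of Nkd2 or Wnt5a. DFL had 5 regions without a counterpart and PFL had 1. At 48178 bp upstream of the start, next to a HOX13 site, the DFL region had a fold of 6.60 and a −log10 q of 62.4, against a fold of 2.56 and a −log10 q of 4.44 for its PFL counterpart. A PFL-alone H3K27me3 region with a fold of 5.90 and a −log10 q of 17.96 lay over part of that DFL H3K27ac region, with its summit at 48425 bp. Fzd10 was thus higher in DFL for H3K27ac length and pileup and carried 4 H3K27me3 regions in PFL against 0 in DFL.

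Wnt6 and Wnt10a, neighbours known from the limb ectoderm, shared 8 DFL regions covering 3977 bp and 4 PFL regions covering 2235 bp, with 5 DFL regions and 1 PFL region lacking a counterpart. They were called for DFL when regions within 1 kb were merged or at a ratio of 1.5. At that ratio Wnt7b, also known from the limb ectoderm, was called for PFL. Wnt3a had 9 DFL regions covering 4516 bp and 5 PFL regions covering 3112 bp, in a window that overlaps that of Wnt9a, and its own promoter had no H3K27ac. Wnt5a (chr14:28504750-28527448, + strand) stood just below the 5 genes with the longest excess in DFL, with 8 DFL regions covering 6001 bp and 5 PFL regions covering 4620 bp. Between 35065 and 38832 bp upstream of Wnt5a, where the HOX13 sites are in an intron of Erc2, 3 DFL regions without counterpart lay beside a shared region whose fold was 4.11 in DFL and 2.19 in PFL. HOXA13 and HOXD13 regions overlapped that shared region in DFL and 2 of the 3 DFL-alone regions.

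**Figure D4:**
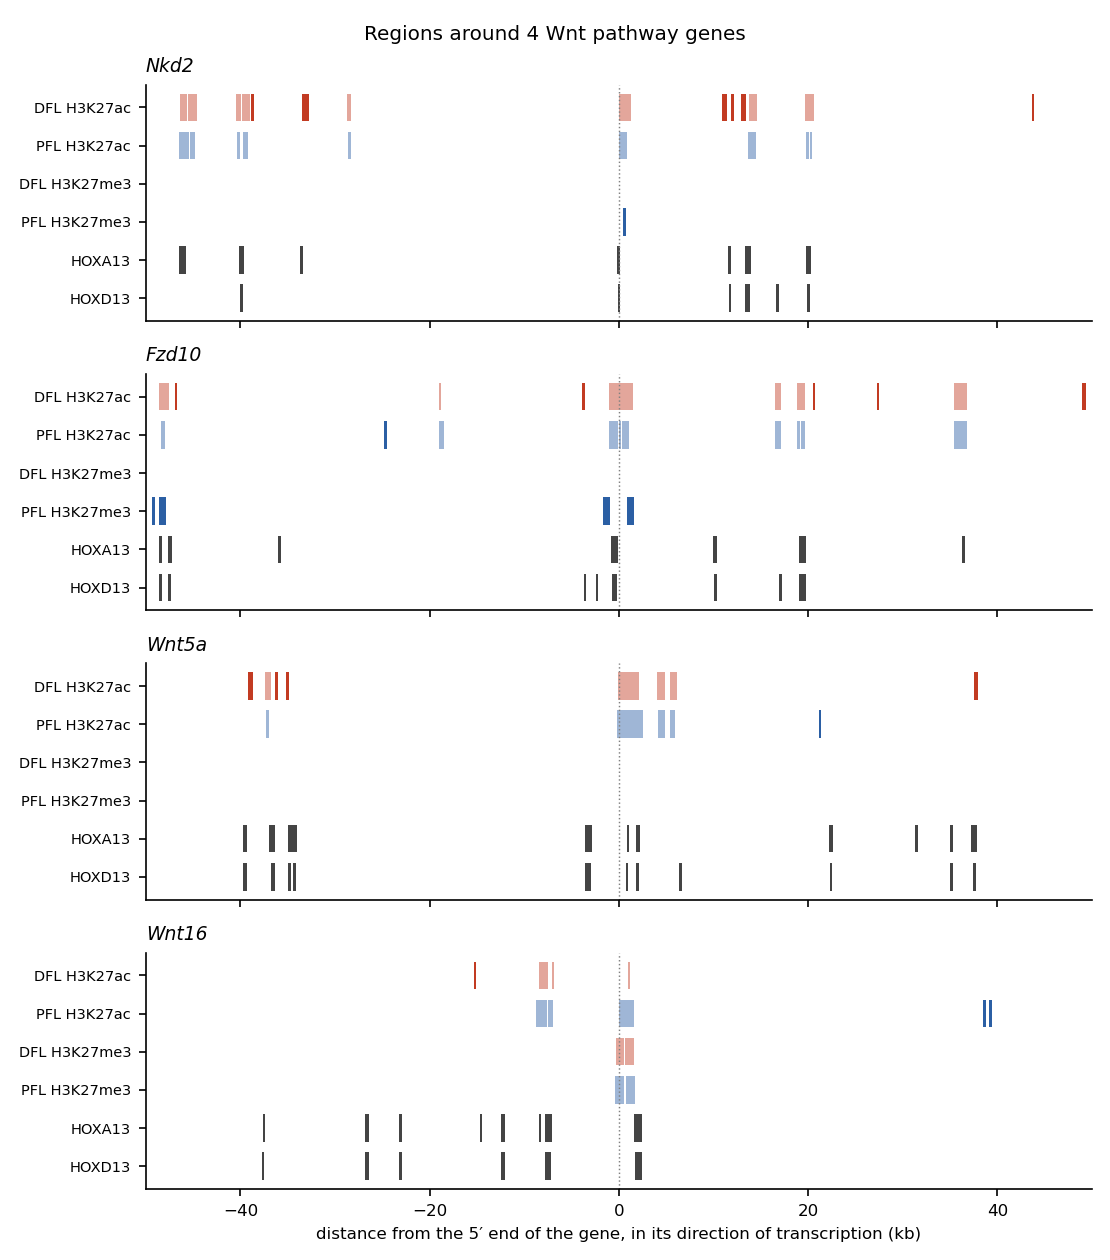
Regions within 50 kb of the 5′ ends of Nkd2, Fzd10, Wnt5a and Wnt16, by distance in kb in the direction of transcription, with DFL red above PFL blue for each mark and HOX13 dark grey; pale bars are regions shared by the pieces, full colour those in 1 piece alone, with the shortest widened to stay visible. Nkd2 has 6 H3K27ac regions in DFL alone and none in PFL alone, and Fzd10 has 4 H3K27me3 regions in PFL alone.

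On the other side, the 5 genes with the longest excess of H3K27ac in PFL were Fzd7, Fzd4, Dkk2, Wnt16 and Fzd2. Fzd7 had 8 DFL regions covering 6513 bp and 14 PFL regions covering 9179 bp, and 5 PFL regions but no DFL region lacked a counterpart. Fzd4, a receptor known for its role in blood vessels, had 9 DFL regions covering 5808 bp and 12 PFL regions covering 8135 bp. At Fzd4, 7 PFL regions had no DFL counterpart and 2 DFL regions had no PFL counterpart. Dkk2, an antagonist of the LRP co-receptors, had 3 DFL regions covering 2914 bp and 7 PFL regions covering 5233 bp, and all 5 regions without counterpart were in PFL. Fzd2 had the longest H3K27ac of the genes, 16 DFL regions covering 14163 bp and 14 PFL regions covering 16369 bp.

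At Wnt16 (chr6:22288227-22298522, + strand) a large part of the difference lay at the promoter, where a PFL region with a fold of 4.12 spanned a DFL region with a fold of 1.93 and a −log10 q of 1.41. The PFL region touched the HOXA13 region whose window is shown above, 2010 bp downstream of the start, and the DFL region did not. The Wnt16 call for PFL was lost in windows of 100 kb to each side, and with a −log10 q of at least 5 its promoter H3K27ac was in PFL alone. Around Wnt2, the single DFL region had a PFL counterpart, and 2 weak PFL regions at the promoter had none in DFL. The Wnt2 call for PFL was lost with a −log10 q of at least 5, where the difference was -366 bp, and with lists of equal size, where it was -824 bp.

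For H3K27me3, none of the 46 windows was called for DFL (0.0369% of all genes) and 4 were called for PFL (5.79% of all genes). Wnt1 and Wnt10b counted the same regions, 10 in DFL covering 4305 bp and 12 in PFL covering 9335 bp. Fzd10 had 0 bp in DFL and 4 regions covering 2508 bp in PFL. Rspo1 had 3 regions covering 1448 bp in DFL and 9 covering 4298 bp in PFL. The count of 4 became 1 (Fzd10) with lists of equal size. There the longer list was cut to its regions of highest −log10 q, which does not make the depth of these libraries equal. Fzd10 was the only one of the 4 called under each of the settings run. The median difference was -724 bp over the 46 genes and 0 bp over all genes, many of which lack the mark. DFL held 39.5% of the H3K27me3 length of the genes' windows and 40.1% of that of all genes.

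HOXA13 and HOXD13 regions both stood within 2 kb of a start at 15 of the 46 genes (32.6%, Wilson interval 20.9 to 47.0%), against 22.9% of all genes. They comprised 4 ligands (Wnt5a, Wnt5b, Wnt11 and Wnt16), 5 receptors (Fzd1, Fzd2, Fzd7, Fzd8 and Fzd10), Nkd1 and Nkd2, the secreted antagonists Sfrp2 and Frzb, and Axin2 and Tcf7. The highest promoter folds were 8.29 for HOXA13 and 7.04 for HOXD13 at Fzd10, 7.63 and 7.22 at Wnt16, and 5.62 and 8.54 at Axin2. Of the 8 genes with no promoter H3K27me3, 6 were among the 15, the exceptions being Wif1 and Wnt8b. The same share over all genes with no promoter H3K27me3 is not given here, so no link between the 2 is read from it. With a −log10 q of at least 5 in all lists, the 15 genes with both factors became 9.

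Among the H3K27ac regions within 50 kb of the genes, 62 of 248 in DFL (25.0%) had no PFL counterpart, against 26.7% of the whole DFL list, and 84 of 263 in PFL (31.9%) had no DFL counterpart, against 38.1% of the whole PFL list. A HOX13 region overlapped 17 of the 62 DFL-alone regions (27.4%, 17.9 to 39.6%), 81 of the 186 shared DFL regions (43.5%, 36.6 to 50.7%) and 12 of the 84 PFL-alone regions (14.3%, 8.37 to 23.3%). The intervals of DFL alone and PFL alone overlapped. In the whole lists the shares with a HOX13 region were 32.5%, 40.9% and 12.53%, so those near the Wnt genes were close to the genome. When the strongest HOX13 summit had to lie inside the region, the shares near the genes were 6.45% for DFL alone, 28.5% for shared and 7.14% for PFL alone, and the order of DFL alone and PFL alone turned round. Shares of the whole lists under this rule are not given here. Whether the drop and the turned order are particular to these genes therefore cannot be told.

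**Figure D5:**
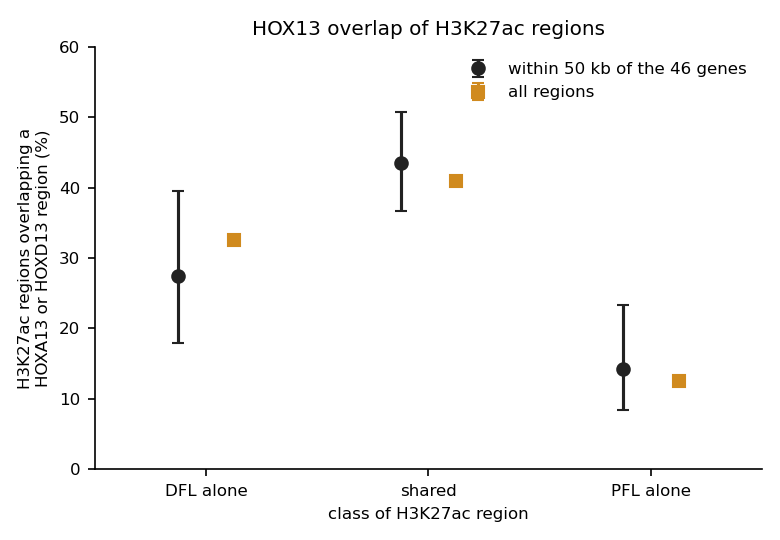
Share of H3K27ac regions that overlap a HOXA13 or HOXD13 region (vertical, %), for regions in DFL alone, shared by DFL and PFL (DFL list) and in PFL alone, near the 46 genes (black circles) and in the whole lists (orange squares), with Wilson 95% intervals. Near the genes the shares are 27.4%, 43.5% and 14.3%.

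Of the HOX13 sites with both factors near the genes, 58 of 134 (43.3%) overlapped H3K27ac in both pieces, against 26.0% of all 41361 such sites. Another 10 (7.46%) overlapped it in DFL alone and 8 (5.97%) in PFL alone, against 8.15% and 4.46% of all sites, and 58 (43.3%) in neither, against 61.4% of all sites. The sites near the genes lie within 50 kb of a 5′ end by choice, while the 41361 lie at any distance from a gene. Shares of sites within 50 kb of any gene are not given here, so the differences are not read as a trait of these genes.

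CTCF is a DNA-binding protein that marks domain boundaries and chromatin loops. Within 2 kb of a start it was present in both pieces at 22 genes (47.8%), against 30.0% of all genes, in DFL alone at Wnt4, with a fold of 4.55 (2.80% of all genes), and in PFL alone at Nkd1, with a fold of 3.97 (1.98% of all genes). The strongest promoter site was that of Nkd2, with folds of 19.1 in DFL and 19.3 in PFL. Within 50 kb of the genes, 195 of 211 DFL regions (92.4%) had a PFL counterpart, against 88.7% of the whole DFL list, and 194 of 206 PFL regions (94.2%) had a DFL counterpart, against 91.8% of the whole PFL list.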

How the data were processed

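The 6 libraries and the 2 HOX13 lists, all re-analyses of earlier experiments per the labels and methods, were deposited as peak lists. The authors trimmed reads with cutadapt, aligned them to mm10 with Bowtie, discarded low mapping qualities with SAMtools and called peaks on each library with MACS2. Their stated options name no control library, and the lists end at a q-value of about 0.05. Each deposited line gives a fold, which is a ratio of summit pileup to local background, a −log10 p, a −log10 q and the summit offset, and a score that the authors' caller derived from the −log10 q, not used here. The lists hold no read totals. With Python 3.11.15, NumPy 2.4.6, pandas 2.3.3 and SciPy 1.17.1, lines sharing an interval were collapsed, and overlapping regions merged, on autosomes and X. H3K27ac gave 59804 regions in DFL and 69503 in PFL, H3K27me3 9083 and 13873, and CTCF 54673 and 52801, and HOXA13 and HOXD13 gave 66761 and 52660.

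Promoters were the 2 kb around each GENCODE vM21 basic transcript start. Of 21755 protein-coding genes, 54 with a symbol that was not unique were left out. Regions were shared when they overlapped by at least 1 bp. Pileup and background were solved as whole fragments from the deposited fold and −log10 p. Of 2000 lines sampled per list, 99.7 to 100% gave a whole-number pileup within 0.01. The lowest background, used as a measure of depth, was 12.49 fragments in DFL and 11.9 in PFL for H3K27ac, 3.06 and 4.75 for H3K27me3, 6.47 and 7.31 for CTCF, and 6.10 and 7.71 for HOXA13 and HOXD13. Interval sums and the solver were tested on simulated data. Intervals are 95%.

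All members are counted. Those described in full were members called within 50 kb, with a promoter mark in 1 piece alone or with both HOX13 factors within 2 kb, and the 5 largest and 5 smallest differences in H3K27ac length, and others where a further reading of pileup or sequence led to them. The genes and marker lists were chosen with earlier results of these data known.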

Additional observations from a re-analysis of the deposited data

How the results depend on the processing

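Of 77 alternative values for the main counts and shares, 56 stayed within 1.5 times or within the counting interval, 21 moved and 0 reversed. Each value was scored by itself. The turned order of DFL alone and PFL alone in the HOX13 shares given above was thus scored as moved, not as reversed. Percentages after counts are the share of all genes under that alternative. With a −log10 q of at least 5, promoter H3K27ac in DFL alone fell to 1 gene (Tcf7; 1.03%), promoter H3K27me3 in PFL alone to 5 (Wnt10b, Wnt11, Fzd3, Fzd4 and Fzd10; 4.06%) and promoters with both HOX13 factors to 9 (12.1%), and H3K27me3 windows called for PFL numbered 8 (8.05%). With lists of equal size, promoter H3K27me3 in PFL alone numbered 3 (1.89%), H3K27ac windows called 1 for DFL (Nkd2, 0.908%) and 1 for PFL (Wnt16, 3.21%), and H3K27me3 windows called 1 for DFL (Wnt11, 0.387%) and 1 for PFL (Fzd10, 3.03%). Promoters of 1 kb gave 5 with H3K27me3 in PFL alone (3.57%). H3K27ac windows called were 1 for DFL (0.470%) and 4 for PFL (2.76%) within 20 kb, and 5 for PFL (4.34%) within 100 kb. Merging regions within 1 kb gave 2 H3K27ac windows for DFL (1.06%) and 7 H3K27me3 windows for PFL (7.68%). A ratio of 1.5 gave 3 H3K27ac windows for DFL (1.34%) and 8 for PFL (9.68%), and 12 H3K27me3 windows for PFL (9.91%). With the HOX13 summit inside the region, the shares holding one near the genes were 6.45% for DFL alone, 28.5% for shared and 7.14% for PFL alone H3K27ac regions, with no share of the whole lists beside them. The cause of these changes was not tested, apart from the shorter lists and other distances by which they were made. No paired analysis was possible because each piece and mark had 1 library. The lists hold only regions past a q-value of 0.05, so a region missing from 1 piece may lie just under it.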

Other observations

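The rest of the Wnt pathway, a list of 48 genes for co-receptors, the destruction complex, Dishevelleds, the planar polarity proteins and others, was read in the same way. Promoter H3K27ac was present in both pieces at 41 of the 48 (85.4%), against 58.0% of all genes, in PFL alone at Lgr5, an R-spondin receptor, and in neither at 6. Promoter H3K27me3 was present in both pieces at 14 (29.2%, 18.2 to 43.2%), against 16.2% of all genes, in PFL alone at 3 (Porcn, Draxin and Prickle1) and in neither at 31. HOXA13 and HOXD13 both stood within 2 kb of 25 of them (52.1%), against 22.9% of all genes. For H3K27ac within 50 kb, 3 were called for PFL, against 4.17% of all genes, and none for DFL. Ror1, a receptor of the non-canonical branch, had 3434 bp in DFL and 7772 bp in PFL, Lgr5 had 736 bp in DFL and 3736 bp in PFL, and Pygo1 had 3282 bp in DFL and 6750 bp in PFL. For H3K27me3, 5 were called for PFL, against 5.79% of all genes, and none for DFL. They were Tcf7l2 (855 bp in DFL and 3118 bp in PFL), Kremen2 (2637 bp and 5352 bp), Dkkl1 (4070 bp and 8726 bp), Draxin (3210 bp and 7569 bp) and Sp5 (1820 bp and 5510 bp), with the depth of the H3K27me3 libraries as unequal as given above.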
